A study of Mus musculus with 7 samples.

Results

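The replication-dependent histone genes make the core and linker histones that package new DNA in S phase. They were taken as the protein-coding genes of GENCODE M1, on the mouse genome mm9, whose symbol begins with Hist1h, Hist2h, Hist3h or Hist4h. The rule gave 67 of 22367 protein-coding genes. Of these, 55 were Hist1 genes on chromosome 13, 9 were Hist2 genes on chromosome 3, 2 were Hist3 genes on chromosome 11 and 1 was Hist4h4 on chromosome 6. By protein, 6 encode linker histone H1, 19 H2A, 18 H2B, 11 H3 and 13 H4. The copies annotated as pseudogenes were not included.

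5-formylcytosine (5fC) is made when TET enzymes oxidize 5-methylcytosine in steps, and thymine DNA glycosylase (TDG) can cut it out of DNA. Replication-dependent histone genes are mostly short, lack introns and lie in clusters beside one another, often as divergent pairs that share a promoter. Their mRNAs end in a stem-loop that is bound by the protein Slbp, in place of a poly(A) tail, and their transcription is coordinated by Npat at a nuclear body that forms on the clusters. Variant histones such as H3.3 are encoded by separate, replication-independent genes.

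5fC was tagged with biotin, pulled down and sequenced from J1 cells, a mouse embryonic stem (ES) cell line of the 129S4/SvJae strain. The TDG KD cells received an siRNA pool against mouse Tdg, the siRNA control cells received a non-targeting siRNA, both in repeated transfections without feeder cells, and the wild-type cells received no siRNA and were grown on irradiated mouse embryonic fibroblasts. Feeder cells and transfection therefore cannot be told apart between siRNA control and wild type. Each condition had 2 pulldown libraries, described in the study as biological replicates and named here TDG KD 1 and 2, siRNA control 1 and 2 and wild type 1 and 2, and 1 genomic input served all of them. A DNA pulldown holds no measure of Tdg mRNA, so the knockdown was not checked in these files.

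The libraries held between 20.4 and 45.9 M uniquely placed reads. In each, the genome was divided into enriched, background and unconfident domains. Enriched domains covered 6.32% of the called sequence in TDG KD 1 and between 18.7% and 22.2% in the other libraries. TDG KD 1 was the shallowest library and had 505 Mb of unconfident sequence, against at most 6.28 Mb elsewhere. Wild type 1 was the deepest and was cut into 779418 domains with a median enriched width of 700 bp, against 5900 to 24550 bp in the others, and what part depth and domain width had in its values was not tested. Library names began with BHAM or EAR. The TDG KD and siRNA control libraries numbered 1 and both wild-type libraries carried BHAM, and the TDG KD and siRNA control libraries numbered 2 carried EAR.

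The sequence at the 5′ ends of the histone genes was rich in CpG, the dinucleotide in which mammalian DNA is methylated and in which 5fC arises. Within 500 bp on either side of the 5′ end, 50 of 67 histone genes had a GC content above 50% together with a ratio of observed to expected CpG above 0.6. This is called a CpG-rich 5′ end here, and 44.2% of all genes had one. The promoters of 5 histone genes are given from mm9, from 250 bp before to 50 bp after the annotated 5′ end and read in the direction of transcription, with each CpG in capitals. Hist3h2a and Hist4h4 are shown because they were enriched most often, Hist1h2ba because it belongs to the pair that was enriched inside the chromosome 13 cluster, Hist2h2aa1 because it had the highest level in a single library, and Hist1h4k because it had the lowest mean level.
Hist3h2a, chr11:58767937-58768236, plus strand: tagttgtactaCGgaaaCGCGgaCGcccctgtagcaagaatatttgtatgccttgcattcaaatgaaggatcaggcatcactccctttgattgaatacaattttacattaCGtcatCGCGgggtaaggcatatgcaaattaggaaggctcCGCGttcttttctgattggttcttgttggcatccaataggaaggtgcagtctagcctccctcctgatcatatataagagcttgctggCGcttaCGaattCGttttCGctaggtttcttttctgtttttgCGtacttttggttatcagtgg
Hist4h4, chr6:136752851-136753150, minus strand: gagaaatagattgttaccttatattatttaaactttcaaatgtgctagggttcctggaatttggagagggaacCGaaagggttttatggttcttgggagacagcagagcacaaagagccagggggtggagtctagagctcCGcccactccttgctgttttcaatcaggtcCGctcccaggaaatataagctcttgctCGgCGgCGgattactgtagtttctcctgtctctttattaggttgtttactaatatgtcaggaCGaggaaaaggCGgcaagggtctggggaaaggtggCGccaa
Hist1h2ba, chr13:24025976-24026275, minus strand: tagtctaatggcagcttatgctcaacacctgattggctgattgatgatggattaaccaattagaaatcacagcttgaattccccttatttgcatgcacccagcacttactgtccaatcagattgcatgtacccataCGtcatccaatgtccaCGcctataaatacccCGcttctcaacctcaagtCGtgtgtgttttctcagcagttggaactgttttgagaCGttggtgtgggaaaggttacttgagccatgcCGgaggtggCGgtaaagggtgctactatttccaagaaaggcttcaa
Hist2h2aa1, chr3:96049211-96049510, plus strand: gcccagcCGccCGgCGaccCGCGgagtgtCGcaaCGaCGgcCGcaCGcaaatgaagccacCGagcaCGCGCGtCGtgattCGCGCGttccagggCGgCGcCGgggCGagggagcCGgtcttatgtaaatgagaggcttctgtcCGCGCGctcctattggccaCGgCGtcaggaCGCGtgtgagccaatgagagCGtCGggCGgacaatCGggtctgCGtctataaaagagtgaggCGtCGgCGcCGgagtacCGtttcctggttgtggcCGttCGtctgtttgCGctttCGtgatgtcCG
Hist1h4k, chr13:21842325-21842624, minus strand: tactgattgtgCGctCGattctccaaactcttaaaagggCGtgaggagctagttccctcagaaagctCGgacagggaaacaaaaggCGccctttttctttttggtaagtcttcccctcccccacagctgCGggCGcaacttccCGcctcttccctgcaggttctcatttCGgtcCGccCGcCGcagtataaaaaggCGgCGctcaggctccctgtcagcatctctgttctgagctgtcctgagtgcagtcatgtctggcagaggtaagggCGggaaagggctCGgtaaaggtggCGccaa
These promoters held 14 CpGs for Hist3h2a, 9 for Hist4h4, 7 for Hist1h2ba, 45 for Hist2h2aa1 and 17 for Hist1h4k. Hist4h4, which was enriched in 4 libraries, missed the threshold for a CpG-rich 5′ end at 49.1% GC, whereas Hist1h4k passed it and was enriched in none. TATAAA, searched on both strands, was in 38 of the 67 histone promoters (56.7%), against 13.4% of all promoters of the same 300 bp. CCAAT, also searched on both strands, was in 57 (85.1%), against 37.9% of all promoters. A match is a string of letters and not evidence that a factor binds.

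The histone 3′ stem-loop was searched on the strand of each gene within the gene and 1 kb on either side. It was found for 64 of 67 histone genes, at 63 sites, and for 2 of 3235 other genes of at most 2 kb (0.062%). The most common forms are shown because they tie the gene set to its known RNA end, with the arms of the stem in capitals.
The form at 40 sites, as in Hist3h2ba on chromosome 11: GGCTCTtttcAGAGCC
The form at 9 sites, as in Hist1h2bl on chromosome 13: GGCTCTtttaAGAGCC
The form at 8 sites, as in Hist1h4k on chromosome 13: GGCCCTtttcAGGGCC
These letters were not found near Hist1h2al, Hist1h2an and Hist1h3g. A site within 1 kb can belong to a neighbour on the same strand. The only site counted for Hist1h4a was that of Hist1h3a, and the only site counted for Hist2h2be was that of Hist2h2ab. Both sites lay before the 5′ ends of Hist1h4a and Hist2h2be, so they are not 3′ stem-loops of those genes.

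The histone genes were rarely in 5fC-enriched sequence. A gene was called enriched where enriched domains covered at least 50% of the gene with 1 kb on either side. By that rule 1 of 67 histone genes was enriched in TDG KD 1 and 3 in TDG KD 2, against 14.2% and 44.0% of all genes. In the siRNA control libraries 2 and 4 were enriched, against 42.1% and 41.0% of all genes. Wild type 1 had 5 and wild type 2 had 1, against 35.9% and 43.5% of all genes. The histone genes are short, and other genes of at most 2 kb were also enriched less often than genes in general, at 8.04%, 26.8%, 23.9%, 23.5%, 22.6% and 25.1% in the same order of libraries. Histone genes lay side by side in the same domains, so the 67 genes are not 67 independent observations and no test over genes was made.

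Enrichment in no library was found for 59 of 67 histone genes, against 47.1% of all genes and 63.3% of other genes of at most 2 kb. The 8 that were enriched at least once were Hist3h2a, Hist3h2ba, Hist4h4, Hist2h2aa1, Hist2h3b, Hist2h2bb, Hist1h2ba and Hist1h2aa. None was enriched in all 6, against 11.7% of all genes. Leaving out any 1 library gave between 59 and 61 genes enriched in no library. With any overlap counted as enrichment, the number fell to 36, because wild type 1 then touched 31 histone genes. Any overlap touched 3 and 7 histone genes in TDG KD 1 and 2 (22.5% and 68.7% of all genes), 3 and 4 in the siRNA control libraries (61.3% and 53.3%), and 31 and 4 in wild type 1 and 2 (86.8% and 63.4%). For other genes of at most 2 kb the shares were lower, at 8.44%, 29.8%, 25.6%, 24.3%, 53.1% and 27.4% in the same order of libraries.

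Histone genes with a CpG-rich 5′ end were enriched in smaller shares than all genes with such an end. Over 1 kb on either side of the 5′ end, 1 and 3 of the 50 histone genes with a CpG-rich 5′ end were enriched in TDG KD 1 and 2, against 18.0% and 65.3% of all 9878 such genes. In the siRNA control libraries it was 2 and 3 of 50, against 46.8% and 42.1%. In wild type 1 and 2 it was 6 and 0 of 50, against 65.2% and 54.0%. The 50 genes lie in the same few blocks, which limits what their number can show. Across all 67 histone genes the density of CpG over the gene and 1 kb on either side had a Spearman correlation with the level of between -0.21 and 0.26 in the 6 libraries, as a description of genes that share domains.

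**Figure D1:**
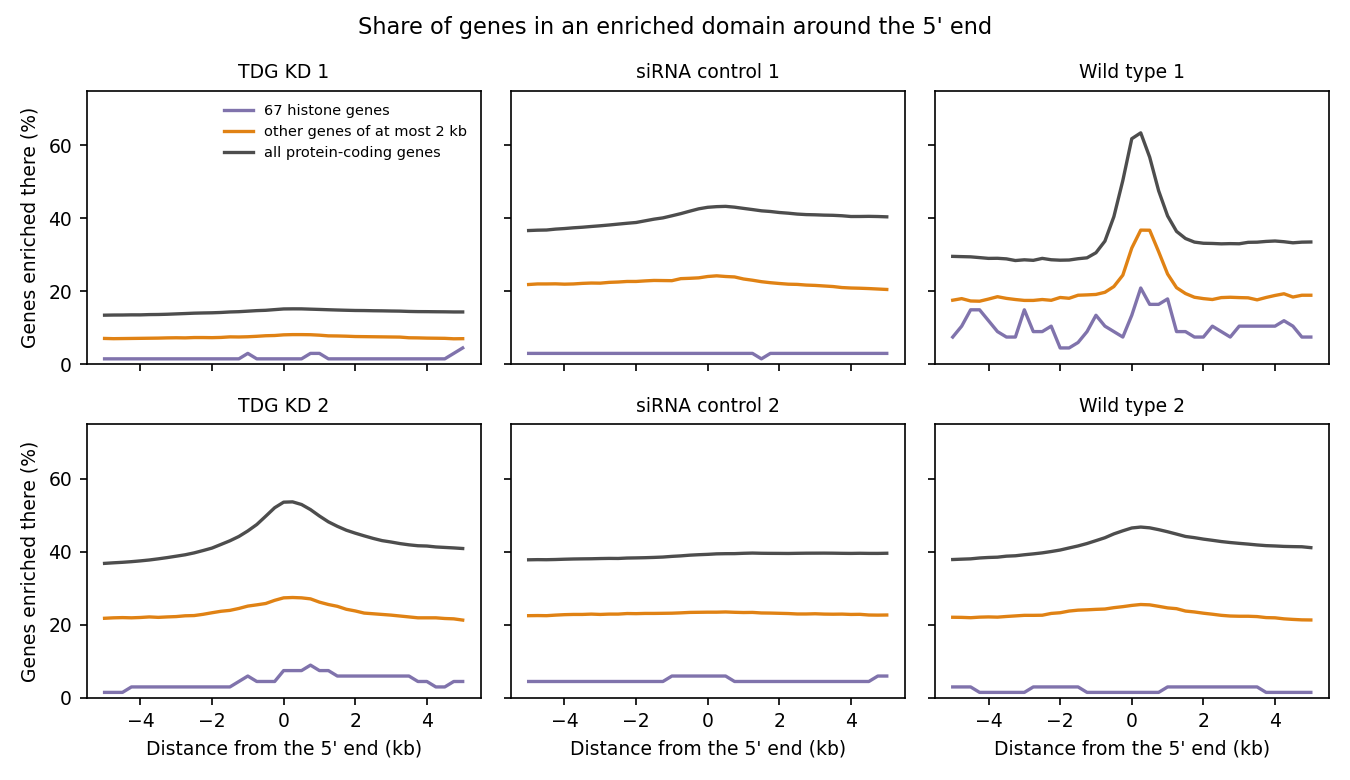
Share of genes (%) whose sequence at each distance from the 5′ end (kb, downstream positive) lay in an enriched domain, 1 panel per library, for the 67 histone genes, the 3235 other genes of at most 2 kb and all protein-coding genes. At 250 bp downstream the histone genes reached 20.9% in wild type 1 and at most 7.46% in the other libraries, below both other lines in all 6 panels.

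The profile around the 5′ end gave the same picture without a window rule. At 250 bp downstream of the 5′ end, 1.49% of histone genes were in an enriched domain in TDG KD 1 and 7.46% in TDG KD 2, against 15.2% and 53.7% of all genes. The siRNA control libraries had 2.99% and 5.97%, against 43.2% and 39.4%. Wild type 1 had 20.9% and wild type 2 had 1.49%, against 63.4% and 46.8%. In wild type 1, the library with the narrowest domains, the lines of all 3 gene sets were highest just downstream of the 5′ end.

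The chromosome 13 cluster held most of the histone genes and most of those without enrichment. It spanned chr13:21807632-24026720 and held 54 of the 55 Hist1 genes in blocks of 18, 5, 29 and 2 genes, while Hist1h2al lay alone at chr13:51298057-51298434. In the cluster, 52 of 54 genes were enriched in no library, against 47.1% of all genes and 63.3% of other genes of at most 2 kb. Enriched sequence made up 0.775% of the 2219 kb of the cluster in TDG KD 1 and 2.55% in TDG KD 2, against 6.32% and 21.9% of all called sequence. The siRNA control libraries had 2.20% and 3.06% of the cluster, against 22.2% and 21.1%, and wild type 1 and 2 had 7.86% and 2.28%, against 18.7% and 20.8%.

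**Figure D2:**
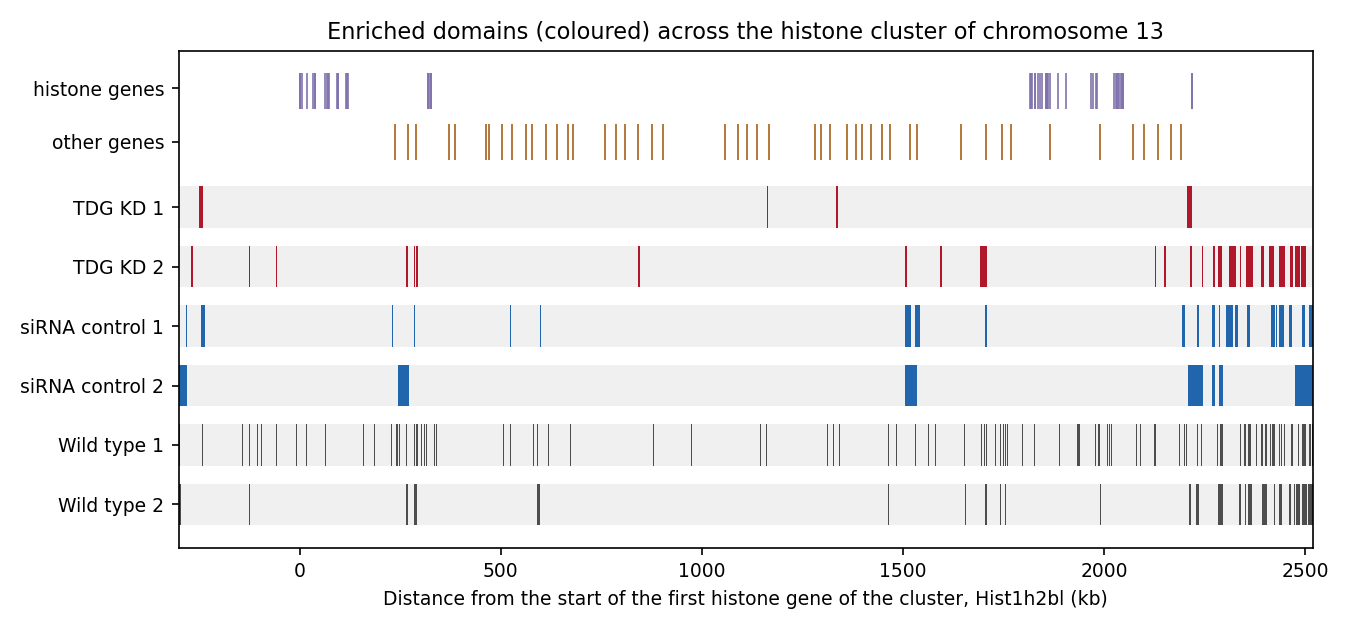
Enriched domains (coloured) in the 6 libraries along the chromosome 13 cluster, with the positions of its 54 histone genes and of 48 other protein-coding genes above, as distance in kb from the start of Hist1h2bl. The large blocks of histone genes fall in long stretches without enriched domains in the TDG KD and siRNA control libraries. The same holds in wild type 2, except for 1 enriched domain of 1800 bp in the block of 29 genes. Wild type 1 has narrow enriched domains across the cluster, 260 in all.

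Long background domains held whole blocks of genes. The block of 29 genes between Hist1h4h and Hist1h1a, 233 kb long, lay inside 1 background domain of 381.6 kb in TDG KD 1, of 418.1 kb in TDG KD 2, of 484.3 kb in siRNA control 1 and of 441.9 kb in siRNA control 2. In wild type 2 it was divided between background domains of 233.1 and 220.7 kb by an enriched domain of 1800 bp, and wild type 1 had 29 enriched domains in it, covering 9.67%. The block of 18 genes from Hist1h2bl to Hist1h2br was in a single background domain of 487.1 kb in TDG KD 1, 285.0 kb in TDG KD 2, 463.1 kb in siRNA control 1, 526.1 kb in siRNA control 2 and 352.2 kb in wild type 2. It had 5.42% enriched sequence in wild type 1, in 10 domains, and 0 in the other libraries. Most background domains were far shorter, with a median of 1.70 kb in wild type 1 and of 10.9 to 39.0 kb in the others. This median counts each domain once, and a long domain holds more sequence than a short one. It therefore does not show how often a gene in background lies in a domain this long.

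Some edges of these background domains fell close together in separate libraries. The domain around the block of 18 genes ended at position 22036741 of chromosome 13 in TDG KD 2, at 22036341 in siRNA control 1 and at 22036841 in wild type 2, where domains are built from 100 bp bins. The domain around the block of 29 genes began at 23516781 in TDG KD 2, at 23516981 in siRNA control 1 and at 23516681 in siRNA control 2. The block of 5 genes from Hist1h2ah to Hist1h2bj had no enriched sequence in any library.

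Other genes inside the cluster were seldom enriched either. Between the first and last histone gene of the cluster lay 48 other protein-coding genes, of which 33 encode vomeronasal receptors, the pheromone receptors of the nose. Of the 48, 0 and 3 were enriched in TDG KD 1 and 2, 3 and 3 in the siRNA control libraries and 3 and 3 in wild type 1 and 2. Enrichment in no library was found for 42, against 47.1% of all genes and 63.3% of other genes of at most 2 kb. The exceptions included Abt1, enriched in 4 libraries, and Pom121l2 and Prss16, enriched in 3 each. Over the longer span as far as Hist1h2al, 240 other genes were counted, and 7 and 48 of them were enriched in TDG KD 1 and 2, 39 and 34 in the siRNA control libraries and 32 and 50 in wild type 1 and 2. All genes had 14.2% and 44.0%, 42.1% and 41.0%, and 35.9% and 43.5% in the same order of libraries. Of the 240, which include the 48, 165 were enriched in no library. Low enrichment was thus shared by the histone genes and their neighbours, and it was not confined to the cluster on this stretch of chromosome 13.

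Levels put the histone genes below the library average. The level is the mean of pulldown minus input reads over the gene and 1 kb on either side, minus the same mean over all domains of the library, per 100 kb and per M uniquely placed reads. The input, of 26.5 M uniquely placed reads, was taken off without scaling to the depth of each pulldown. A level therefore also holds a local input part whose weight differs between libraries, most of all where few reads can be placed. How far this moved the levels between libraries was not tested. The median level of the 67 histone genes was -10.2 reads per 100 kb per M in TDG KD 1 and -12.3 in TDG KD 2, against medians of 1.81 and 5.21 over all genes. It was -8.98 and -6.41 in the siRNA control libraries, against 2.40 and 0.639, and -5.94 and -9.54 in wild type 1 and 2, against 10.5 and 4.36. Other genes of at most 2 kb also had median levels below 0, of -3.14, -5.49, -4.24, -2.48, -2.74 and -4.91 in the same order of libraries. Of the 67 genes, 61 and 58 were among the 25% of genes with the lowest level in TDG KD 1 and 2, 62 and 56 in the siRNA control libraries, and 40 and 52 in wild type 1 and 2. In wild type 1 the sign of the median rested on the reference: measured against the median of its background domains it was 6.59 reads per 100 kb per M.

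**Figure D3:**
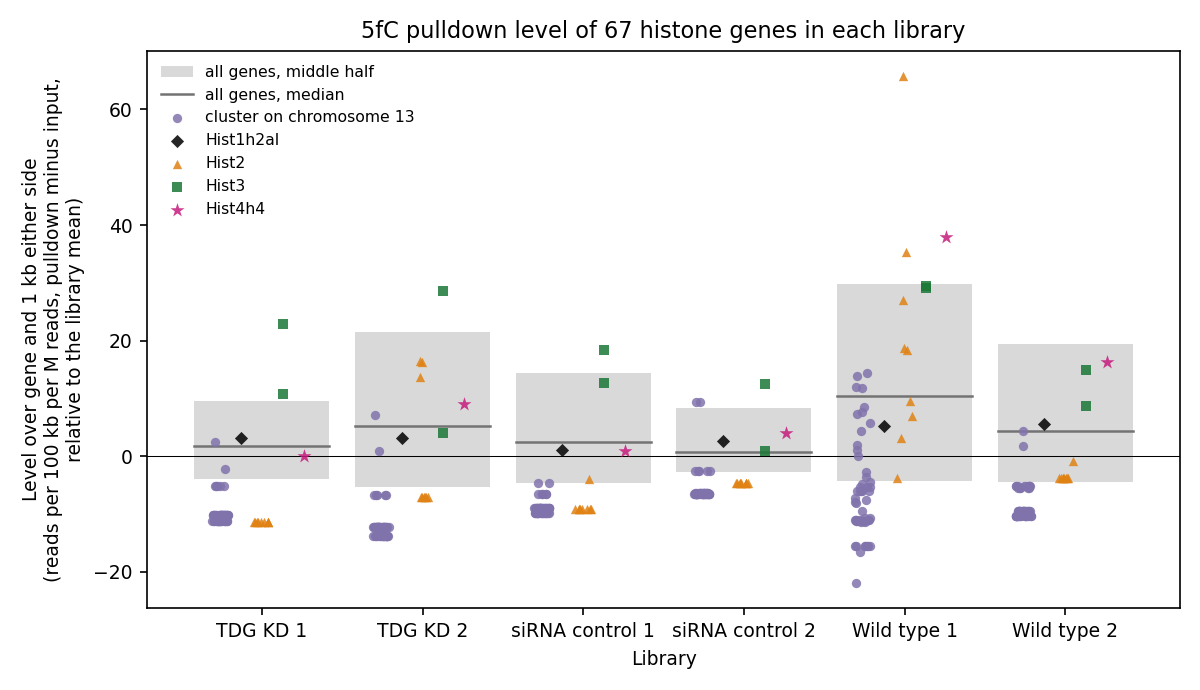
Level of each of the 67 histone genes (reads per 100 kb per M reads, pulldown minus input, relative to the library mean) in the 6 libraries, by locus, with the median and the span between the 25% lowest and 25% highest of all genes in grey. Points of the chromosome 13 cluster lie mostly below the grey band in all 6 libraries, and the Hist3 genes lie above 0 in all 6.

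The levels took few distinct values because the genes shared domains. The 5′ ends of the 67 genes lay in 9 domains in TDG KD 1, 11 in TDG KD 2, 8 in siRNA control 1, 9 in siRNA control 2, 34 in wild type 1 and 9 in wild type 2. Hist1h1d, which encodes a linker histone, had -10.2 and -12.3 reads per 100 kb per M in TDG KD 1 and 2, -8.98 and -6.46 in the siRNA control libraries and -15.5 and -9.54 in wild type 1 and 2, and was below the median of all genes in all 6. It had the lowest mean level of the H1 genes, and Hist1h3e of the H3 and Hist1h2ae of the H2A genes shared its values in all 6 libraries. Hist1h4k, the lowest of the H4 genes, had -11.2 and -13.9 in TDG KD 1 and 2, -9.83 and -6.41 in the siRNA control libraries and -21.9 and -10.3 in wild type 1 and 2. Hist1h2bm, the lowest of the H2B genes, lies in the same block and differed from Hist1h4k only in wild type 1, at -11.3. The median level of each of the 5 classes was the same in TDG KD 1 and in TDG KD 2, -10.2 and -12.3.

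The testis-specific genes of the cluster did not behave alike. Hist1h1t encodes the linker histone H1t of spermatocytes, and Hist1h2ba and Hist1h2aa encode the testis H2B and H2A. Hist1h1t, within the block of 29 genes, had the domain values of its neighbours, -10.2 and -12.3 in TDG KD 1 and 2, -8.98 and -6.46 in the siRNA control libraries and -9.54 in wild type 2, and 5.79 in wild type 1, where 17.2% of its window was enriched. Its mean was the highest of the 6 H1 genes.

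Hist1h2ba and Hist1h2aa form a divergent pair at the far end of the cluster, at chr13:24025637-24026025 and chr13:24026331-24026720. They were the only genes of the cluster called enriched in any library. In siRNA control 2 an enriched domain of 38.1 kb covered both windows whole. Hist1h2ba had 2.44 and 7.06 reads per 100 kb per M in TDG KD 1 and 2, -4.63 and 9.46 in the siRNA control libraries and 11.9 and 4.33 in wild type 1 and 2. Hist1h2aa had -2.25 and 0.919 in TDG KD 1 and 2, -4.63 and 9.46 in the siRNA control libraries and 8.54 and 1.71 in wild type 1 and 2. The siRNA control replicates were thus the lowest and the highest library for Hist1h2aa, and for Hist1h2ba only wild type 1 was higher than siRNA control 2. An enriched domain ended 0.256 kb past the 3′ end of Hist1h2ba in TDG KD 1, TDG KD 2 and wild type 1. Hist1h2al, which encodes an H2A and lies apart from the cluster, was enriched in no library but had levels above 0 in all 6, between 1.10 and 5.59.

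Set beside the other loci, the Hist1 genes had the lower median in 4 of 6 libraries. The median level of the 55 Hist1 genes minus that of the 12 genes elsewhere was 1.15 and -10.7 reads per 100 kb per M in TDG KD 1 and 2, 0.129 and -1.85 in the siRNA control libraries and -30.7 and -5.78 in wild type 1 and 2. Among the 21 histone genes whose sequence was at least 90% unique, 16 Hist1 genes and 5 others, the difference was below 0 in all 6, from -7.44 to -34.3. The 5 others were then Hist3h2ba, Hist3h2a, Hist4h4, Hist2h2be and Hist2h4, so 7 of the 9 Hist2 genes were left out and the set compared with Hist1 was a different one. The 12 other genes were not of 1 kind: the Hist2 genes had a median below 0 in 5 libraries, and the Hist3 genes and Hist4h4 were above 0 in all 6.

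The Hist2 genes lie within 59.1 kb at chr3:96023839-96082924. Their 5′ ends all lay in 1 background domain in 4 libraries, of 113.9 kb in TDG KD 1, 68.3 kb in siRNA control 1, 104.2 kb in siRNA control 2 and 78.5 kb in wild type 2. No Hist2 gene was enriched in these 4 libraries. The median level of the 9 genes was -11.3 and -7.08 in TDG KD 1 and 2, -9.11 and -4.62 in the siRNA control libraries and 18.4 and -3.76 in wild type 1 and 2. Wild type 1 alone was above 0, and enriched sequence covered 31.8% of the block there, against 1.48% in wild type 2.

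Hist2h2aa1 and Hist2h2aa2 encode H2A from near-identical copies that are transcribed away from each other. Hist2h2aa1 had the highest level of any histone gene in 1 library, 65.8 reads per 100 kb per M in wild type 1, with 73.4% of its window enriched. It had -11.3 and -7.08 in TDG KD 1 and 2, -9.11 and -4.62 in the siRNA control libraries and -3.76 in wild type 2. Hist2h2aa2 had the same values except in wild type 1, at -3.72, and no enriched sequence. Of the 40-base starts in these windows 33.7% and 35.4% were found once in the genome, so reads of the copies may not be told apart and the difference between them in wild type 1 is uncertain. Hist2h3c1, an H3 gene that overlaps Hist2h2aa1, reached 35.3 in wild type 1 with 44.4% of its window enriched, and its levels in the other libraries were those of Hist2h2aa2.

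Another part of the Hist2 block was enriched in TDG KD 2. Hist2h3b, an H3 gene, had 61.0% of its window enriched there, its neighbours Hist2h4, an H4 gene, and Hist2h2bb, an H2B gene, 47.1% and 46.1%. The levels of Hist2h4 were -11.3 and 16.4 in TDG KD 1 and 2, -9.11 and -4.62 in the siRNA control libraries and 18.4 and -3.76 in wild type 1 and 2. TDG KD 2 and wild type 1 were the high libraries, and the replicates of both conditions differed in sign. Hist2h2bb was enriched in wild type 1, at 63.8% of its window. The remaining genes, Hist2h2ab, Hist2h2ac and Hist2h2be, were enriched in no library, with 16.0% to 37.9% of the window enriched in wild type 1.

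**Figure D4:**
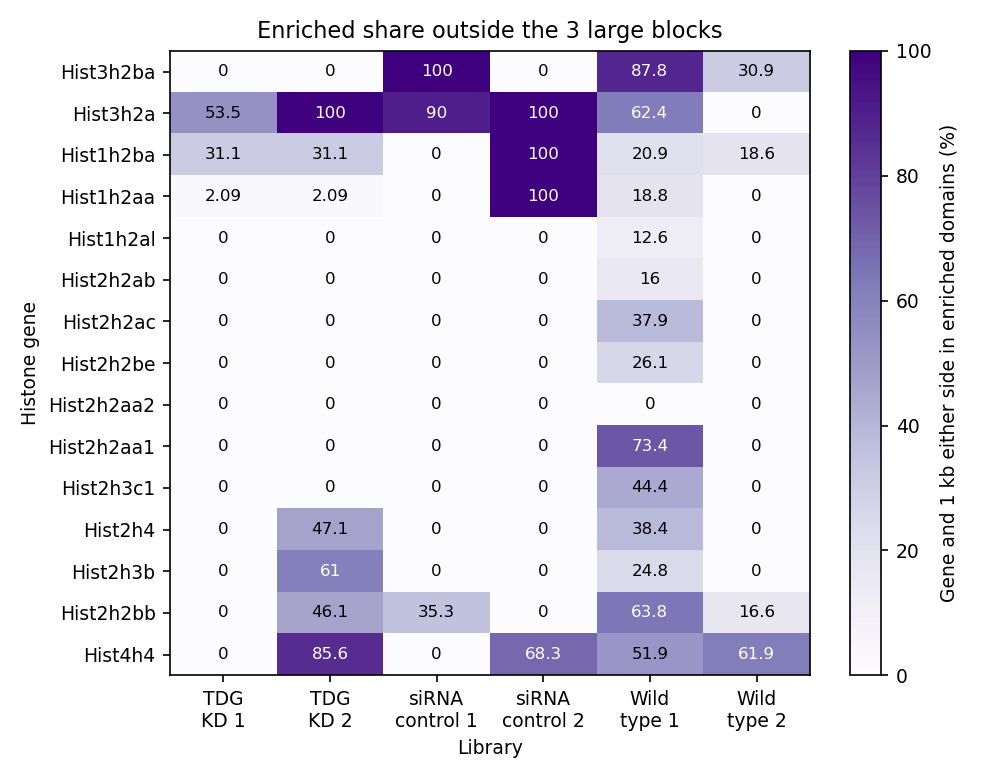
Percentage of each window (gene and 1 kb on either side) in enriched domains, for the 15 histone genes outside the 3 large blocks of chromosome 13, in the 6 libraries. Hist3h2a is at 53.5% or more in 5 libraries and at 0 in wild type 2, and Hist4h4 is at 51.9% or more in 4.

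Hist3h2a, which encodes an H2A and lies at chr11:58768187-58770176, was enriched in 5 libraries and had the highest mean level of the 67 genes. Its levels were 22.8 and 28.6 reads per 100 kb per M in TDG KD 1 and 2, 12.7 and 12.6 in the siRNA control libraries and 29.1 and 8.62 in wild type 1 and 2. Both TDG KD libraries were above both siRNA control libraries, and the wild-type libraries lay on either side of all 4. Enriched domains covered 53.5% and 100% of its window in TDG KD 1 and 2, 90.0% and 100% in the siRNA control libraries and 62.4% and 0% in wild type 1 and 2. It was the only histone gene enriched in both TDG KD libraries and the only one in both siRNA control libraries, against 13.7% and 35.7% of all genes. The domain at its 5′ end was 2300 bp wide in TDG KD 1, 18800 bp in TDG KD 2, 26000 bp in siRNA control 1 and 624600 bp in siRNA control 2, so the value of siRNA control 2 is the mean of a far longer stretch.

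Hist3h2ba encodes an H2B and lies beside Hist3h2a. Its levels were 10.7 and 3.96 in TDG KD 1 and 2, 18.3 and 0.979 in the siRNA control libraries and 29.4 and 14.9 in wild type 1 and 2. It was enriched in siRNA control 1 over 100% of its window and in wild type 1 over 87.8%, and in wild type 2 over 30.9%. It had the highest mean level of the 18 H2B genes.

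Hist4h4, an H4 gene at chr6:136752589-136752900, was enriched in TDG KD 2 over 85.6% of its window, in siRNA control 2 over 68.3% and in wild type 1 and 2 over 51.9% and 61.9%. It was the only histone gene enriched in both wild-type libraries, against 33.9% of all genes. Its levels were 0.0911 and 9.0 in TDG KD 1 and 2, 0.957 and 3.92 in the siRNA control libraries and 38.0 and 16.3 in wild type 1 and 2. Both wild-type libraries were above the other 4. In TDG KD 1 and siRNA control 1 it lay in background domains of 62.7 and 62.8 kb. The replication-independent H2A gene H2afj lies next to it and was in the same background domain in both.

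The knockdown comparison asked whether 5fC at the histone genes differed between TDG KD and siRNA control. In a limma fit over all 22072 genes with values in all libraries, 0 genes (0%) passed an adjusted p of 0.05 and 209 (0.947%) had an unadjusted p under 0.05, with 0 of the 67 histone genes among either. Without TDG KD 1, 1 histone gene and 995 of all genes had an unadjusted p under 0.05. The largest difference among histone genes that had the same sign within the BHAM and the EAR libraries was that of Hist3h2a. It averaged 25.7 ± 4.10 in TDG KD and 12.7 ± 0.119 in siRNA control (SD, n = 2 each), a difference of 13.1 ± 7.17 (SE, limma adjusted p = 0.993). Hist1h2al was the only other gene higher within both prefixes, by 2.00 and 0.661, and its fitted difference turned to -0.762 after quantile normalization.

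**Figure D5:**
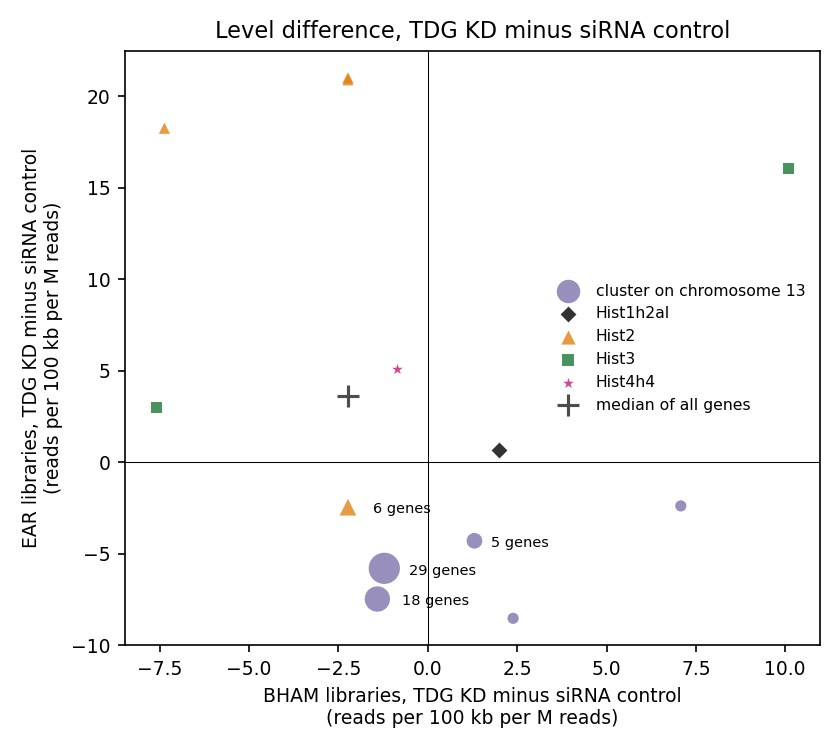
TDG KD minus siRNA control level of each histone gene (reads per 100 kb per M reads) between the BHAM libraries (horizontal) and between the EAR libraries (vertical). Point size grows with the number of genes that share a value, and the cross marks the median of all genes. The blocks of 29 and 18 genes lie below 0 on both axes, and Hist3h2a is at 10.1 and 16.0.

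Most histone genes had lower values in TDG KD than in siRNA control on this scale, which is relative to the mean of each library. The sign was the same within both prefixes for 55 of 67 genes, and 53 of these were lower in TDG KD. The 53 genes hold few values: the block of 29 differed by -1.22 between the BHAM and by -5.81 between the EAR libraries, the block of 18, which includes Hist1h2bl, Hist1h3h and Hist1h3i, by -1.41 and -7.48, and 6 Hist2 genes by -2.23 and -2.47. The median of all genes differed by -2.24 between the BHAM and by 3.63 between the EAR libraries. Over the 67 genes the median fitted difference was -3.51, against 1.09 over all genes, and after quantile normalization it was 0.412, with 39 of 67 genes above 0 in place of 7. The direction therefore depends on the scaling, and no histone gene passed the test under either.

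The comparison of siRNA control with wild type, which used the same siRNA control libraries, called 0 of 22072 genes (0%) at an adjusted p of 0.05 and 3163 (14.3%) at an unadjusted p under 0.05. Among the histone genes, 1 of 67 was below that unadjusted value, Hist4h4. This count was 16 of 67 without wild type 2 (6706 of all genes), 7 after quantile normalization (2318) and 0 without wild type 1 (689) or without either siRNA control library (1246 and 439). Hist4h4 averaged 2.44 ± 2.10 in siRNA control and 27.1 ± 15.3 in wild type (SD, n = 2 each), a difference of -24.7 ± 7.82 (SE, limma adjusted p = 0.317). The difference was -13.8 without wild type 1, -35.5 without wild type 2 and -11.7 after quantile normalization, with limma adjusted p between 0.102 and 0.963 over all alternatives. Hist2h2aa1 had a larger difference, -37.9 ± 21.4 (limma adjusted p = 0.361), which rests on wild type 1. An exact permutation test of 2 libraries against 2 cannot give a two-sided p below 0.33, so none was run on single genes.

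Sequence that repeats in the genome limited how many reads could be placed in these genes. A 40-base read starting in the window was unique in mm9 for a median of 82.5% of starts over the 67 genes, against 93.4% over the 48 neighbours in the cluster. For 8 genes it was under 50%. Hist1h2bq and Hist1h2br, H2B genes, had 0%, Hist1h2ap and Hist1h2ao, H2A genes, 1.23% and 1.59%, and Hist1h4m, an H4 gene, 4.45%. No unique read can start in the windows of Hist1h2bq and Hist1h2br, whose values come from the domains around them. For the 21 genes with at least 90% unique starts, enrichment was found for 1 and 2 in TDG KD 1 and 2, 2 and 4 in the siRNA control libraries and 3 and 1 in wild type 1 and 2. All genes had 14.2% and 44.0%, 42.1% and 41.0%, and 35.9% and 43.5% in the same order. Other genes of at most 2 kb had 8.04% and 26.8%, 23.9% and 23.5%, and 22.6% and 25.1%. Neither of these sets was filtered for unique starts, and no test was made. The median levels of the 21 genes were -10.2 and -12.3 in TDG KD 1 and 2, -8.98 and -6.46 in the siRNA control libraries and 1.09 and -5.50 in wild type 1 and 2. In TDG KD 1 and 2 and the siRNA control libraries these medians are the values of the domain around the block of 29 genes, which genes with fewer unique starts in that block share. The part of repeated sequence in the low levels was therefore not tested.

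Replication-independent histone genes were mostly enriched in at least 1 library, where 52.9% of all genes were. Of the 17 listed, 14 were found, and 6 and 10 were enriched in TDG KD 1 and 2, 6 and 6 in the siRNA control libraries and 9 and 9 in wild type 1 and 2. All genes had 14.2% and 44.0%, 42.1% and 41.0%, and 35.9% and 43.5% in the same order, so the list was near the share of all genes in the siRNA control libraries and above it in the other 4, as counts of 14 genes with no test. Only H3f3b, which encodes H3.3, was enriched in none. H2afy, the gene of macroH2A1, was enriched in all 6, with levels of 14.0 and 27.8 in TDG KD 1 and 2, 17.7 and 8.79 in the siRNA control libraries and 31.7 and 18.8 in wild type 1 and 2. H1foo, the gene of the oocyte linker histone, was also enriched in all 6, with levels between 20.2 and 44.3. Of all genes, 11.7% were enriched in all 6. H2afz, the gene of H2A.Z, was enriched in 4, with levels of 14.2 and 31.2 in TDG KD 1 and 2, 0.613 and 1.07 in the siRNA control libraries and 20.5 and 14.5 in wild type 1 and 2. Median levels of the list were above 0 in all 6 libraries, from 4.03 to 21.3.

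Genes that make and handle histone mRNA and protein were enriched about as often as genes in general, apart from the first list in TDG KD 1. Of 16 genes for histone transcription and 3′ end processing, 0 and 7 were enriched in TDG KD 1 and 2, 6 and 8 in the siRNA control libraries and 6 and 6 in wild type 1 and 2, and 8 were enriched in none, against 47.1% of all genes. Their shares in TDG KD 2, the siRNA control and the wild-type libraries were near those of all genes given above. Lsm11, part of the U7 particle that cuts histone pre-mRNA, and Sympk, a scaffold of the cleavage complex, were enriched in 5 libraries each, and Npat, Slbp and Casp8ap2 in none. Of 6 histone chaperones, 2 and 3 were enriched in TDG KD 1 and 2, 3 and 2 in the siRNA control libraries and 2 and 2 in wild type 1 and 2, and 3 were enriched in none, too few genes to set apart from all genes. Chaf1a, a subunit of the chromatin assembly factor CAF-1, was enriched in all 6, and Nasp and Asf1a, which bind H3 and H4, in none.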

How the data were processed

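5fC was measured by chemical pulldown in 6 libraries of J1 ES cells, 2 each of TDG KD, siRNA control and wild type. The authors aligned 40-base single-end reads to mm9 with BWA (0.6.1 in the submitters' processing notes), kept reads with a mapping quality of at least 15, and called domains in each library against 1 input with rseg in 100 bp bins. The deposited domain files give a state and a score, the mean of pulldown minus input reads per bin, which the authors did not scale for depth. A second deposited score grows with domain width and was not used.

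Gene windows came from GENCODE M1 on mm9, with 1 kb on either side. The state was the percentage of the window in each kind of domain. The level was the length-weighted score minus its mean over the library, per M uniquely placed reads in the study's library table and per 100 kb. Uniqueness was the percentage of 40-base starts found once in mm9, counting both strands. Levels were fitted with limma 3.58.1 in R 4.3.3 over all protein-coding genes, 3 conditions together, with Benjamini-Hochberg adjustment at 0.05. The scripts used Python 3.11.15 and were tested on simulated data. Domain files hold no read counts per gene, so depth limits the precision of a level but no counting interval could be given.

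Named genes were the highest and lowest of each histone class, all loci outside the Hist1 cluster that were enriched in none or all libraries, the testis-specific genes, those past the limma threshold, the largest rises and falls of the same sign within both library name prefixes, and the 5 with the fewest unique starts. Hist2h3b, Hist2h2bb, Hist2h2aa1, Hist3h2ba, Hist1h4m and the comparison genes are named beside counts of which they are part, and some were chosen after their values were seen. The gene set and the lists were chosen with earlier results of these data known. Alternatives covered the window, the overlap, the domain strength, the reference of the level, uniqueness, quantile normalization, the name prefix and leaving out each library.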

Additional observations from a re-analysis of the deposited data

How the results depend on the processing

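Direction and side of the threshold were kept in most alternatives. Any overlap gave 3 and 7 enriched histone genes in TDG KD 1 and 2 and 31 and 4 in wild type 1 and 2, and 36 enriched in no library (chosen after seeing the data). A 90% overlap gave 0 and 1 in TDG KD 1 and 2, 1 and 3 in siRNA control 1 and 2 and 0 and 0 in wild type 1 and 2. The 5′ end with 1 kb on either side gave 5 in TDG KD 2 and 8 in wild type 1, the gene alone 12 in wild type 1, and genes with at least 90% unique starts 3 in wild type 1. No share of all genes is given beside the counts for the 90% overlap, the 5′ end and the gene alone. Those counts therefore cannot be set against genes in general. Enrichment in either replicate counted 3 genes in TDG KD, 5 in siRNA control and 5 in wild type, and any overlap in both replicates 3 in TDG KD and 4 in wild type. Leaving out a replicate gave 1 to 3 in TDG KD, 2 to 4 in siRNA control and 1 to 5 in wild type, and 59 to 61 genes enriched in no library.

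With the library mean left in, median levels were -23.8 and -9.47 in TDG KD 1 and 2, -5.44 in siRNA control 1 and 11.3 in wild type 1. Against the background median they were -6.66 and -5.20 in TDG KD 1 and 2, -3.73 and -3.50 in the siRNA control libraries and 6.59 and -3.62 in wild type 1 and 2. With at least 90% unique starts they were 1.09 and -5.50 in wild type 1 and 2, and Hist1 minus the other loci was -10.3 and -21.3 in TDG KD 1 and 2 and -9.93 and -7.44 in the siRNA control libraries. The cause of these shifts was not tested.

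Between TDG KD and siRNA control, a fit of the 4 siRNA libraries with the name prefix as a block called 11 genes (3 higher, 8 lower), no histone gene among them. All other fits called 0. Quantile normalization turned the sign for Hist4h4 (-1.52), Hist1h2al (-0.762) and Hist2h2aa1 (1.46) between TDG KD and siRNA control, and for Hist3h2a (8.40) and Hist1h2al (2.27) between siRNA control and wild type. Leaving out 1 replicate moved Hist4h4 between TDG KD and siRNA control from -2.35 (without TDG KD 2) to 6.56 (without TDG KD 1), and Hist3h2a between siRNA control and wild type from -16.4 (without wild type 2) to 4.04 (without wild type 1). None of these differences passed the test in any fit. The prefix block is a paired fit by library name, with 1 TDG KD and 1 siRNA control library per prefix, and the labels carry no replicate numbers to pair by. Counting confident sequence alone left the number of enriched histone genes as it was in all 6 libraries.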
